A study of Mus musculus with 2 samples.

Results

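The genes of antigen presentation on major histocompatibility complex (MHC) class II were followed through single-cell mRNA sequencing (scRNA-Seq) of bone marrow-derived monocytes (BMDMs) on their way to osteoclasts (OCs). The set held 7 of the 32544 genes in the gene table, chosen by symbol: H2-Aa, H2-Ab1, H2-Eb1, Cd74, H2-DMa, H2-DMb1 and Ciita. All 7 were counted in both libraries. One library was labelled CONTROL, with no alleles given, and the other came from LysM-Cre;Arid1afl/fl marrow and is called the mutant library here. How many animals went into a library is not given in the labels. Marrow cells of both libraries came from femurs, and OC induction was by RANKL at 100 ng/ml beside M-CSF at 50 ng/ml. The cells were taken about a day after RANKL was added. LysM-Cre is a recombinase driven by the Lyz2 promoter in myeloid cells. It removes a floxed part of Arid1a, the gene of a BAF component that remodels chromatin.

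MHC class II molecules are pairs of an α and a β chain that hold peptides from engulfed proteins at the cell surface, where CD4+ T cells read them. H2-Aa and H2-Ab1 encode the α and β chain of the I-A molecule, and H2-Eb1 the β chain of the I-E molecule. Cd74, the invariant chain, fills the groove while the pair travels to the endosome, where H2-DMa and H2-DMb1, the chains of H2-DM, help to exchange its last fragment for a peptide. Ciita is the transactivator that the class II promoters need. Dendritic cells and B cells express these genes steadily, and macrophages do so after interferon gamma. OC precursors descend from the same myeloid progenitors.

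Each group had 1 library, so no difference below has a replicate check, and no test across samples was possible. The intervals in parentheses are 95% intervals that cover counting error only and describe these libraries, not the genotypes. Cells with at least 500 detected genes and at most 10% mitochondrial UMIs (unique molecular identifiers, 1 per captured molecule) were kept. These were 6269 control cells, with a median of 23978 UMIs, and 5663 mutant cells, with a median of 21734. Arid1a stood at 51.9 UMIs per 1e6 UMIs (CPM) in the control library and 20.4 in the mutant library, a log2 ratio of mutant over control of -1.35 (-1.41 to -1.28). The 3′ end that is read lies outside the floxed part, so recombined transcripts are still counted. The libraries shared 8 cell barcodes. 

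Most of the members lie close together on chromosome 17. In GENCODE M39 on GRCm39 these were H2-DMa (34338515 to 34358958, plus strand), H2-DMb1 (34372046 to 34379204, plus), H2-Ab1 (34476663 to 34488393, plus), H2-Aa (34493404 to 34506798, minus) and H2-Eb1 (34504236 to 34535648, plus). Ciita lies on chromosome 16 (10297923 to 10347694, plus). The gene models of H2-Aa and H2-Eb1 overlap on opposite strands, H2-DMa overlaps Brd2 and Ciita overlaps Dexi in the same way. Whether strand was used in counting is not given in the sources used here, so the split of reads between such partners is uncertain. H2-DMb1 has a close paralog, H2-DMb2, beside it, with which it may share reads.

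Class II promoters carry an X box and a Y box close to the transcription start, which the RFX and NF-Y complexes bind and onto which Ciita is recruited. These elements are shown as the known sequence of class II promoters. Only a short motif for each box was searched below, and not every window held both motifs. An X box whose end departs from the motif would be missed, so a window without the motif was not shown to lack the box. RefSeq promoter windows were given for 4 members, H2-Aa, H2-Eb1, H2-DMa and H2-DMb1, and the 250 bases before each start were searched on both strands for ACNGATG (the end of the X box) and CCAAT (the Y box, ATTGG on the other strand). The stretches below were placed on GRCm39 by exact match, are written 5′ to 3′ on the gene's own strand, and carry both motifs in capitals where they occur.
H2-Eb1 (chr17:34524737-34524801, plus strand): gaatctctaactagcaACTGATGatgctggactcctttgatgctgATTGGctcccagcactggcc
H2-Aa (chr17:34506826-34506890, minus strand): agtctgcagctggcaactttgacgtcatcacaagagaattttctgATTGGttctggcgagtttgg
In H2-Eb1, ATTGG began 59 bases before the RefSeq start and 22 bases separated it from ACTGATG. H2-DMb1 held the same ordered pair with 23 bases between, and its ATTGG began 61 bases before the start. In H2-Aa, ATTGG began 48 bases before the start and no ACNGATG preceded it on that strand. For H2-DMa, 2 windows were given, of which 1 held ATTGG, 198 bases before the start, and neither held ACNGATG. The starts of these 2 windows lie 3291 and 5977 bases from the GENCODE gene start, so they may not cover the promoter of that gene model. The RefSeq start of H2-Eb1 lies 20605 bases from the GENCODE gene start, so its stretch is intronic in the longer gene model, and that of H2-Aa is intronic in H2-Eb1. Among 32544 distinct windows of all genes, 8.32% held ACNGATG and 33.8% held CCAAT. The ordered pair, with a spacing of 15 to 25 bases that was set after the members' sequences had been read, was in 21 windows (0.0645%). These belonged to 21 genes, of which 9 were H2 genes: H2-DMb1, H2-Eb1, H2-DMb2, H2-Eb2 and the class I genes H2-D1, H2-M3, H2-Q4, H2-Q6 and H2-Q7. A match of letters is a description and does not show that a factor bound there.

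The chains that form the class II molecule differed most between the libraries. H2-Aa had 284 UMIs in the control library and 2406 in the mutant library, or 1.74 and 18.3 CPM (log2 3.40, 3.22 to 3.58). H2-Eb1 had 290 and 2443 UMIs, or 1.77 and 18.6 CPM (log2 3.39, 3.21 to 3.57). H2-Ab1 had 583 and 1976 UMIs, or 3.56 and 15.03 CPM (log2 2.08, 1.94 to 2.21). All 3 were thus higher in the mutant library, and the intervals of the levels did not overlap. A single control cell held 78 of the 284 H2-Aa UMIs, and 1 cell held 91 of the 290 H2-Eb1 UMIs.

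The invariant chain, whose gene lies apart on chromosome 18 (60936899 to 60945731, plus strand), and the peptide exchange factor were higher by less. Cd74 was counted 3546 times in the control and 8399 times in the mutant library, which is 21.7 and 63.9 CPM (log2 1.56, 1.503 to 1.617). H2-DMa had 648 and 1380 UMIs, or 3.96 and 10.5 CPM (log2 1.41, 1.27 to 1.54). For H2-DMb1 the counts were 1490 and 2094, or 9.11 and 15.9 CPM (log2 0.81, 0.71 to 0.90). Its partner chain H2-DMa therefore differed by more than H2-DMb1, with intervals that did not overlap. The transactivator itself was hardly seen. Ciita had 37 control and 45 mutant UMIs, or 0.226 and 0.342 CPM, and the interval of its log2 ratio, 0.60 (-0.06 to 1.27), held 0.

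Of the 6 members whose mean reached 1 CPM, 5 were higher by 2-fold or more, and H2-DMb1 was not. Over all 10828 genes with that mean, 7.11% were higher and 2.69% lower by as much. At a minimum mean of 20 CPM Cd74 alone was left, and it counted as higher by 2-fold beside 5.65% of 5219 genes. The median log2 ratio was 1.82 over the 6 members and 0.064 over all of these genes. Ciita lay below the minimum. Summed, the 7 members took 42.0 CPM in the control library and 143 in the mutant library (log2 1.76, 1.722 to 1.802). A sum over cells does not tell more cells with the transcripts from more transcripts per cell, so the spread over cells was taken up next.

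**Figure D1:**
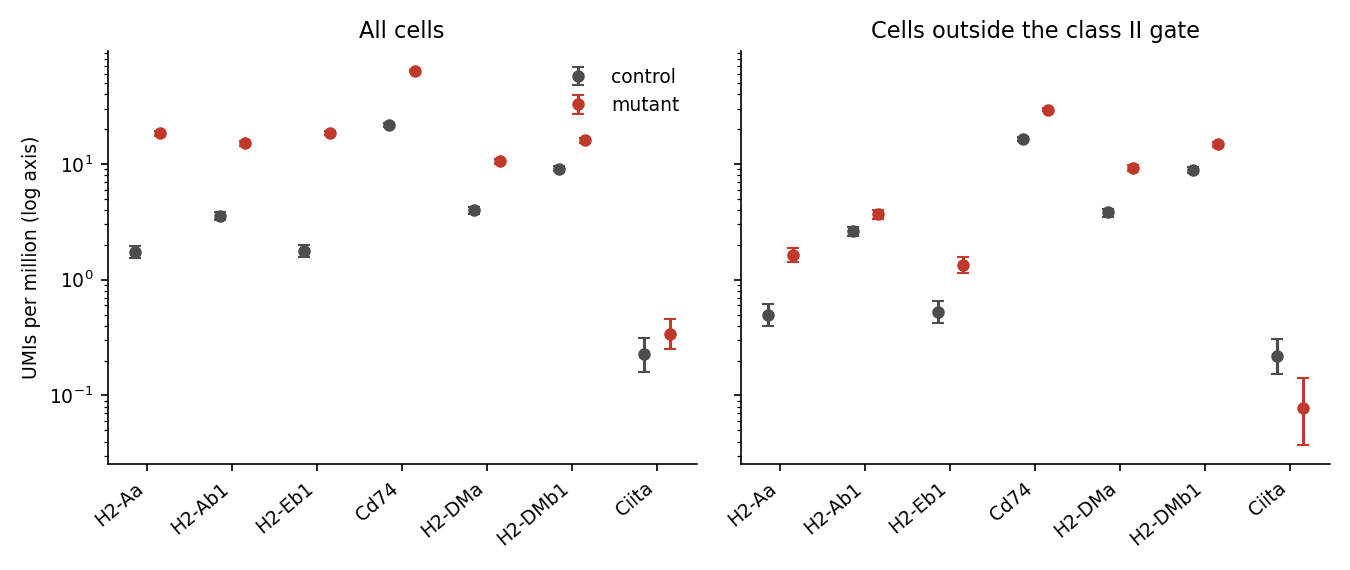
Levels of the 7 members in CPM (log axis) in the control library (grey) and the mutant library (red), over all cells on the left and over cells outside the class II gate on the right. Points are summed levels with 95% Poisson intervals for counting error, 1 library per group. Over all cells H2-Aa, H2-Eb1 and H2-Ab1 lie farthest apart, while outside the gate the mutant levels stay above the control levels for every member except Ciita.

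To ask how concentrated the transcripts were, cells were ranked for each member by the share of their UMIs that the other 6 members took, so that a gene did not choose its own cells. The first 1% of cells (63 control and 57 mutant cells) held 79.6% of the H2-Aa UMIs in the control library (74.4 to 84.1%) and 84.4% in the mutant library (82.9 to 85.8%). For H2-Eb1 they held 72.1% (66.5 to 77.2%) and 88.3% (87.0 to 89.6%). Both genes thus lay mostly in a few cells of either library. Those cells held under 1% of all UMIs, 0.713% and 0.528% in the H2-Aa ranking.

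H2-Ab1 and Cd74 were spread more widely in the control library. The first 1% of control cells held 34.3% of the H2-Ab1 UMIs (30.5 to 38.3%), against 70.7% in the mutant library (68.7 to 72.7%). For Cd74 the shares were 32.7% (31.1 to 34.2%) and 48.5% (47.4 to 49.6%). The larger part of the control UMIs of both genes therefore came from cells outside this 1%. Ranked by the gene's own count, 50% of the H2-Ab1 UMIs sat in 73 control cells but in 15 mutant cells, and 50% of the Cd74 UMIs in 110 and 46 cells.

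H2-DM was concentrated to a smaller degree. The first 1% of cells held 6.17% of the H2-DMa UMIs (4.45 to 8.31%) among control cells and 11.1% (9.48 to 12.9%) among mutant cells, beside 0.726% and 0.584% of all UMIs. For H2-DMb1 they held 5.23% and 7.35%. Many cells contributed, 222 control and 279 mutant cells for 50% of H2-DMa and 439 cells in each library for 50% of H2-DMb1. Ciita was spread differently in the libraries, with 2 of 37 control UMIs (5.41%, 0.661 to 18.2%) and 34 of 45 mutant UMIs (75.6%, 60.5 to 87.1%) in the first 1% of cells. For comparison, the first 1% of cells in a ranking by all 7 members held 1.09% and 0.891% of the UMIs of H2-K1, a class I heavy chain, 0.929% and 0.760% of those of B2m, the class I light chain, and 0.691% and 0.650% of those of Actb.

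**Figure D2:**
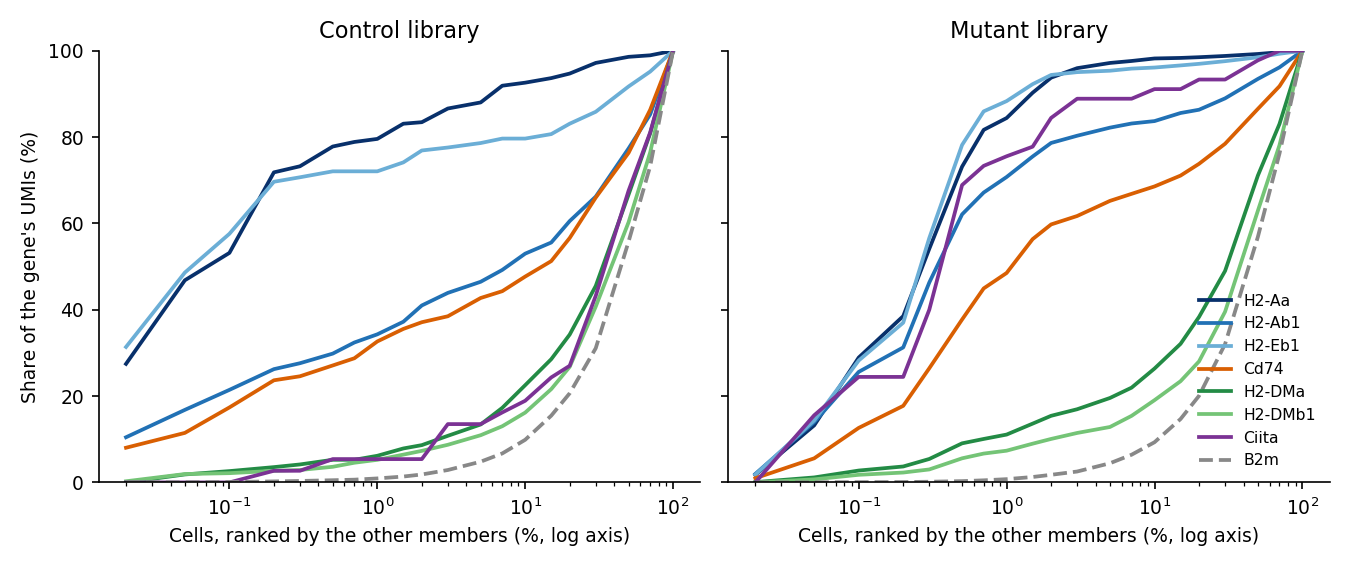
Share of a gene's UMIs (vertical, %) held by the highest-ranked cells (horizontal, % of cells, log axis) in the control library (left) and the mutant library (right). Cells are ranked for each member by the other 6 members, and for B2m (dashed) by all 7, so a curve that rises early belongs to a gene concentrated in few cells. At 1% of cells, H2-Aa stands at 79.6% and 84.4%, and Ciita at 5.41% and 75.6%.

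The cells that carried these transcripts were set apart by a class II gate. Each cell was thinned at random to 5000 UMIs, and the gate took cells with at least 3 UMIs over H2-Aa, H2-Ab1 and H2-Eb1. It took 13 of 6101 control cells, a share of 0.213% (0.114 to 0.364%), and 63 of 5312 mutant cells, a share of 1.19% (0.913 to 1.51%). The mutant share was higher by 0.973 percentage points (0.661 to 1.32). On counts that were not thinned the shares were 0.798% and 2.22%.

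The gate was not sharp at its lower edge. Just inside it, with 3 thinned UMIs, were 4 control and 10 mutant cells, and just outside it, with 2, were 8 and 14 cells. At the other end, 4 control and 36 mutant cells had 10 or more. The neutrophil gate, cells in which S100a8, S100a9, Camp and Ngp made up at least 1% of UMIs, served as a background, since neutrophils should lack class II transcripts. Its 17 control and 75 mutant cells all lay outside the class II gate. With so few cells, a count of 0 allows a share of up to 17.6% and 4% at 3 counts, and the exact binomial upper limits are 19.5% and 4.80%. Thinning left out 168 control and 351 mutant cells with fewer than 5000 UMIs. These shallow cells held 2 UMIs of the 3 gate genes in the control library and 302 in the mutant library, the latter in 16 cells.

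Gate cells had a median of 16503 UMIs (control) and 15358 UMIs (mutant), below the 24271.5 and 22448 of the other cells of that depth. None of the control gate cells and 1 of the mutant gate cells was marked as a likely doublet. The control gate rested heavily on a single cell, which held 230 of its 563 UMIs of the gate genes (40.9%). The highest mutant cell held 7.95% of 5663. Over the control gate cells the 3 genes together ranged from 112 to 17336 CPM with a median of 1237, and over the mutant gate cells from 189 to 40391 CPM with a median of 2524. The ranges overlapped from 189 to 17336 CPM, and the mutant library had the higher median and the higher maximum.

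The members that had no part in the gate's rule went along with it. In the control library 12 of 13 gate cells had a Cd74 UMI, and in the mutant library 63 of 63. The level of Cd74 inside the gate was 3622 CPM for the control and 3586 CPM for the mutant cells, and the interval of the log2 ratio, -0.015 (-0.12 to 0.092), held 0. This rested on the single control cell named above, which had 285 Cd74 UMIs, 32.3% of those in the control gate. Without it the control level was 2593 CPM and the log2 ratio 0.47 (0.34 to 0.59). With all gate cells, the level inside was 223 times the level outside the gate in the control library (206 to 240) and 122 times in the mutant library (117 to 128). H2-DMa was 23.7 times (14.8 to 36.3) and 15.3 times (12.9 to 18.0) as high inside as outside, and H2-DMb1 17.2 times (12.03 to 23.8) and 9.82 times (8.36 to 11.5). In the control gate 1 cell held 31.8% of the H2-DMa UMIs and another 35.1% of the H2-DMb1 UMIs. The intervals of these folds do not cover such clumping. H2-DM was thus enriched in the same cells, but by less than Cd74 in each library.

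Ciita was seen in 1 of 13 control gate cells, with 1 UMI, and in 16 of 63 mutant gate cells, with 35 UMIs. Those 16 cells held 53.9% of the gate-gene UMIs of the mutant gate. All 7 members were detected together in 15 mutant gate cells and in 0 control gate cells. The 3 gate genes were all present in 60 of 63 mutant and 11 of 13 control cells.

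**Figure D3:**
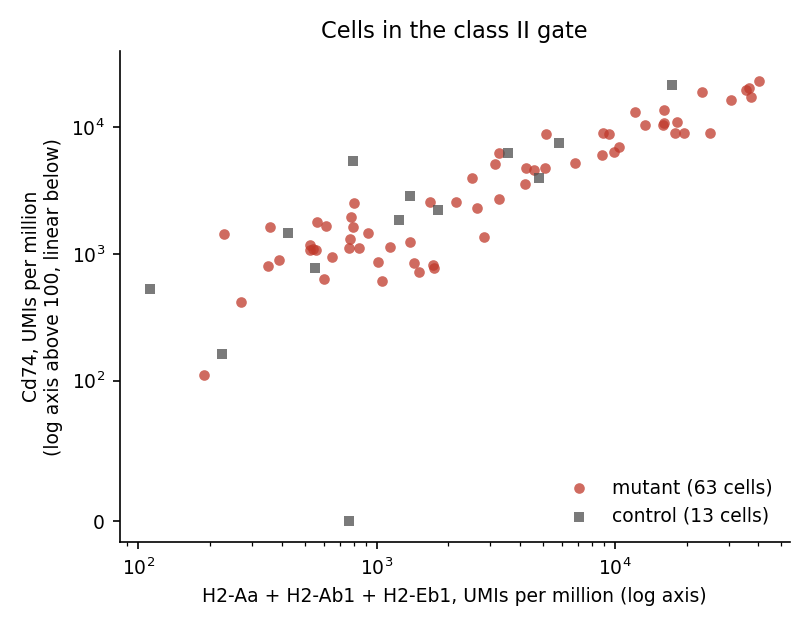
Each point is 1 cell of the class II gate, with its summed level of H2-Aa, H2-Ab1 and H2-Eb1 (horizontal, CPM, log axis) and its level of Cd74 (vertical, CPM, log axis above 100 and linear below), for 63 mutant cells (circles) and 13 control cells (squares). Cells high for the gate genes were high for Cd74 in both libraries. A single control cell has no Cd74 UMI.

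Cell type markers were then read in the gate cells, with 10 lists and 55 markers in all. Of the macrophage list all 7 markers had a UMI in both gates, but in very different numbers of cells. Csf1r, the M-CSF receptor, was seen in 13 of 13 control and 57 of 63 mutant gate cells, Adgre1, the F4/80 antigen, in 10 and 55, Lgmn in 11 and 58, and Dab2 in 8 and 45. The complement gene C1qb was in 7 and 20 cells, C1qa in 2 and 11, and the mannose receptor gene Mrc1 in 1 and 1. Csf1r had 333 CPM inside the control gate (264 to 413) and 353 CPM inside the mutant gate (320 to 388), against 256 and 404 CPM in the other cells outside the neutrophil gate. Adgre1 had 78.03 and 288 CPM inside against 147 and 539, and C1qa 41.1 and 70.6 against 209.9 and 119.8. The macrophage list as a sum was lower inside the gate than outside it (outside the neutrophil gate as well), with 936 against 1460 CPM in the control and 1507 against 2160 CPM in the mutant library.

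More of the dendritic cell markers had a UMI in the larger mutant gate. Of the 10 markers 1 had a UMI in the control gate, Itgax (CD11c), in 7 of 13 cells. In the mutant gate 7 had one, and Itgax was in 26 of 63 cells. Ccr7 and Fscn1, which mark migratory dendritic cells, occurred together in the same 4 mutant cells, which held 12.3% of the gate-gene UMIs. Flt3, Clec9a and Cd209a were each in 1 mutant gate cell and Zbtb46 in 2, and Xcr1, Clec10a and Mgl2 were at 0 in both gates. The summed list stood at 41.1 CPM inside against 2.81 outside in the control, and at 66.4 against 5.38 in the mutant library.

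Of the monocytic markers, Ccr2 had a UMI in both gates and the others in the mutant gate alone, except Chil3, which was at 0 in both. Ccr2, a receptor of monocytes leaving the marrow, was in 3 of 13 control and 24 of 63 mutant gate cells. Plac8 was in 0 and 17 cells, and Ly6c2 in 0 and 4. The list summed to 28.7 CPM inside against 4.44 outside in the control library, and to 325 against 41.4 in the mutant library.

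Markers of lymphoid and other cells were few. The B cell genes Cd79a, Pax5 and Ebf1 were at 0 in both gates, while Cd79b was in 1 control and 7 mutant cells and Ms4a1 in 1 mutant cell. Of the plasmacytoid dendritic cell list, Tcf4, which is not restricted to that cell type, was in 2 and 32 cells, and Siglech in 0 and 1. The T or NK cell, basophil or mast cell, and stromal lists were at 0 in both gates, as 6, 4 and 4 markers. Neutrophil genes summed to 8.21 CPM inside against 15.7 outside in the control and to 19.1 against 37.0 CPM in the mutant library. The control sum was 1 UMI each of S100a8 and Ngp, too few to tell from the level outside. Osteoclast genes summed to 411 against 232 CPM in the control and to 198 against 97.0 CPM in the mutant library. In each gate 1 cell held most of these UMIs, 65 of 100 in the control and 127 of 239 in the mutant gate. Without that cell the sum inside was 160 CPM (112 to 223) in the control, below the level outside. In the mutant library it was 95.7 CPM (78.8 to 115), an interval that held the level outside. The gate cells were not given a cell type name, and the part of these markers in the differences between the libraries was not tested.

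Outside the gate the members were still detected, and the question was at what level. Of the 5 members whose mean reached 1 CPM there, 2 were higher by 2-fold or more, H2-Aa and H2-DMa, against 7.07% of 10823 genes that were higher and 2.71% that were lower by as much. At a minimum of 20 CPM, Cd74 alone was left and did not reach 2-fold, against 5.64% of the genes. H2-Eb1 and Ciita lay below the minimum. The median log2 ratio of the 5 members that reached 1 CPM was 0.85, against 0.063 over all genes with that mean. The members together had 32.8 CPM in control and 59.98 CPM in mutant cells (log2 0.87, 0.82 to 0.92).

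H2-Aa had 81 control and 211 mutant UMIs outside the gate, or 0.497 and 1.63 CPM (log2 1.71, 1.34 to 2.10). This value moved with the gate, to 2.16 when thinned to 2000 UMIs, 1.13 on counts not thinned and 1.12 with a gate over Cd74, H2-DMa and H2-DMb1. H2-Eb1 had 86 and 174 UMIs, or 0.528 and 1.35 CPM (log2 1.35, 0.97 to 1.74). Both ratios were smaller than over all cells. H2-Ab1 kept 425 of its control UMIs and 475 of its mutant UMIs, or 2.61 and 3.67 CPM (log2 0.49, 0.30 to 0.69). The gate was defined by these 3 genes, so the drop in their level outside it follows from the rule and is only described here.

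Cd74 stood at 16.3 CPM outside the gate in control cells and 29.3 CPM in mutant cells (log2 0.85, 0.78 to 0.92). H2-DMa had 3.805 and 9.24 CPM (log2 1.28, 1.14 to 1.42), and H2-DMb1 8.85 and 14.7 CPM (log2 0.73, 0.63 to 0.83). For H2-DM the ratios lay near those over all cells, 1.41 and 0.81. Ciita went the other way, with 36 control and 10 mutant UMIs outside the gate, or 0.221 and 0.0773 CPM (log2 -1.51, -2.69 to -0.47).

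H2-Aa and H2-Ab1 did not keep the same proportion inside and outside the gate. Ratios of UMIs of a pair of genes do not compare their levels, since UMIs are not scaled by length, but the same pair can be followed between cell sets. Inside the gate the ratio of H2-Aa to H2-Ab1 UMIs was 1.30 in the control library (1.05 to 1.61) and 1.47 in the mutant library (1.37 to 1.57). Outside it the ratio was 0.191 (0.148 to 0.242) and 0.444 (0.376 to 0.524). The ratio of H2-Aa to H2-Eb1 UMIs was 0.995 and 0.963 inside and 0.942 and 1.21 outside. All 3 genes define the gate, so these ratios are a description.

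Neutrophil gate cells gave the level in cells that should lack these genes, at medians of 8616 control and 10828 mutant UMIs. H2-Aa and H2-Eb1 had 0 UMIs there in both libraries, with upper limits of 20.3 CPM and 3.34 CPM. Those limits lie above the levels of both genes outside the gate, so at this depth a background could not be told from them. Cd74 had 0 control UMIs and 5 mutant UMIs, or 4.53 CPM (1.47 to 10.6), below the 29.5 CPM (28.5 to 30.5) of the other mutant cells outside the gate. H2-DMa had 29 mutant UMIs, or 26.3 CPM (17.6 to 37.7), above the 9.09 CPM of the other mutant cells, and H2-DMb1 14, or 12.7 CPM (6.93 to 21.3), an interval that held their 14.7 CPM.

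Outside the gate the cells were also split by state. The OC gate took cells with at least 3 of 5000 UMIs over Ctsk, Mmp9, Acp5 and Dcstamp (583 control and 178 mutant cells), and the cycling gate those with as many over Mki67, Top2a, Aurka and Cdk1 (2102 and 1643). A cell that passed both rules was counted in the OC gate only, so the sets did not overlap. Neither gate, nor the neutrophil gate, held 3386 and 3353 cells. In the mutant library Cd74 was highest in OC gate cells, with 38.8 CPM (33.3 to 44.9), followed by cells of neither gate, with 31.1 (29.9 to 32.3), and cycling gate cells, with 25.8 (24.3 to 27.4). None of these intervals overlapped, but they do not cover the clumping of UMIs in single cells. In OC gate cells 1 cell held 24 of the 178 mutant Cd74 UMIs and 1 cell 16 of the 345 control UMIs. The order of the states was not tested and is only described. In the control library the order began the same way, with 19.2 CPM (17.2 to 21.3) in OC gate cells. Cells of neither gate and cycling gate cells had 16.0 (15.1 to 16.8) and 15.9 CPM (14.9 to 16.9) and could not be told apart. The Cd74 log2 ratio was 1.01 (0.74 to 1.28) in OC gate cells, 0.70 (0.58 to 0.83) in cycling gate cells and 0.96 (0.86 to 1.06) in cells of neither.

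H2-DMb1 followed the order of Cd74 in the mutant library, with 20.5 CPM (16.5 to 25.05) in OC gate cells, 15.4 (14.6 to 16.3) in neither and 12.9 (11.9 to 14.02) in cycling gate cells. H2-DMa did not, as it was lowest in OC gate cells, at 6.75 CPM (4.59 to 9.58), against 8.16 (7.34 to 9.05) in cycling gate cells and 9.75 (9.07 to 10.5) in neither. The OC interval overlapped both others. Its log2 ratio was alike in the 3 states, 1.14, 1.23 and 1.22, each with an interval above 0. H2-Aa was too sparse in OC gate cells for a comparison, with 22 control and 8 mutant UMIs (log2 0.51, -0.87 to 1.73), while in cycling gate cells it had 20 and 70 UMIs (log2 2.28, 1.55 to 3.07).

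**Figure D4:**
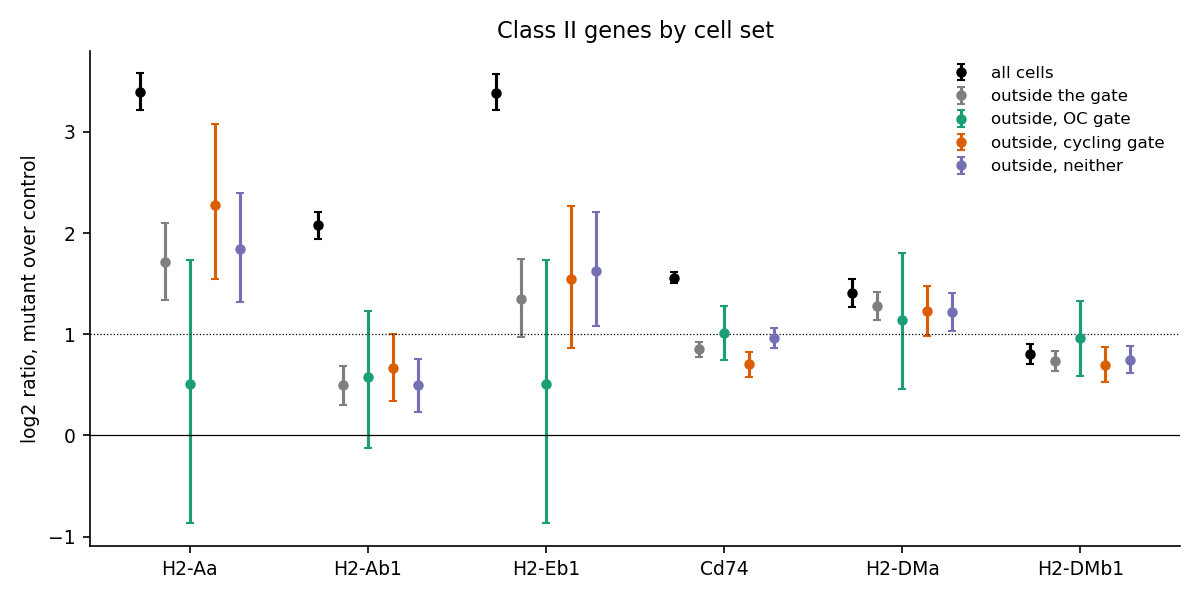
log2 ratio of mutant over control (vertical) for 6 members, over all cells, over cells outside the class II gate, and over those in the OC gate, the cycling gate or neither. Bars are 95% intervals for counting error with 1 library per group, the solid line marks equal levels and the dotted line a 2-fold higher level. H2-Aa and H2-Eb1 drop from 3.40 and 3.39 over all cells to 1.71 and 1.35 outside the gate, while H2-DMa goes from 1.41 to 1.28.

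How far the members went together from cell to cell was described by Pearson's r of log-scaled UMIs over cells with at least 5000 UMIs, all of 1 library and of varying depth. In the mutant library (5312 cells) H2-Aa and H2-Eb1 had an r of 0.94, H2-Aa and Cd74 0.73, and H2-Aa and H2-DMa 0.45. The control values (6101 cells) were 0.82, 0.52 and 0.24. Ciita with H2-Aa gave 0.59 in the mutant and 0.025 in the control library. The nonmember genes nearest to the summed gate genes in the mutant library were Clec4b1, a C-type lectin gene (r = 0.54), Rnase6 (0.40), the receptor kinase gene Axl (0.38), Bcl2a1d (0.36), Lsp1 (0.36), Bcl2a1a (0.33), the chemokine gene Ccl22 (0.32), Bcl2a1b (0.32), Ccnd2 (0.32) and Il1b (0.30). These were taken for their r in the mutant library among genes of at least 200 UMIs there. In the control library r was 0.27 for Clec4b1, 0.19 for Bcl2a1d, 0.18 for Axl, and 0.11 for Lsp1 and Bcl2a1a. It was 0.093 for Bcl2a1b and 0.076 for Ccnd2, and -0.003 for Rnase6, -0.006 for Il1b and -0.010 for Ccl22. A choice made in 1 library favours high values there, so the lower control values are only described. The Bcl2a1 genes are near-identical copies, so their separate counts are uncertain.

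These genes varied in how many gate cells they reached. They were chosen for their r with the gate genes in the same mutant cells. A higher level inside the mutant gate therefore follows from the choice and is only described. Clec4b1 had 119.5 CPM inside the mutant gate, with a UMI in 35 of 63 cells, against 2.35 CPM outside, and Lsp1 was in 62 of 63 cells. Ccl22 was in 12 and Il1b in 13 mutant gate cells. Rnase6 had 73.9 CPM inside and 4.83 CPM outside in the mutant library. In the control library Rnase6 was in 2 gate cells, at 8.21 CPM inside against 12.1 outside. The value inside lay below the floor of 12.3 CPM that 3 counts give there, so the levels could not be told apart. Clec4b1 was in 4 control gate cells and higher inside the control gate, at 32.9 against 0.337 CPM.

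The other genes of the class II pathway were read from a list of 31 genes. Of the class II genes outside the members, all 4 lay below a mean of 1 CPM. H2-Oa, a chain of the H2-DM inhibitor H2-O, had 31 control and 105 mutant UMIs (log2 2.08, 1.49 to 2.70), and H2-DMb2 27 and 76 (log2 1.81, 1.16 to 2.499). H2-Eb2 had 0 control UMIs and 34 mutant UMIs, 25 of them in the mutant gate. H2-Ob had 0 and 3.

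The enzymes that cut antigen and invariant chain were mostly higher in the mutant library, with 3 of 7 past 2-fold and 0 lower by as much, beside 7.11% and 2.69% of all genes tested. Their median log2 ratio was 0.80, against 0.064 over all genes. Lgmn, an asparaginyl endopeptidase, went from 129 to 544 CPM (log2 2.08, 2.05 to 2.10). Ctss, which makes the last cuts in the invariant chain, went from 841 to 2716 CPM (log2 1.69, 1.68 to 1.70), and Ctsd from 2094 to 5381 CPM (log2 1.36). Ctsb (0.80), Sppl2a (0.71) and Ctsl (0.59) were below 2-fold. Ifi30, the thiol reductase of the endosome, was lower, at 262 and 167 CPM (log2 -0.65, -0.67 to -0.63). The enzymes did not share a pattern at the class II gate. Ctss was 1.15 times as high inside as outside in the control library (1.01 to 1.31) and 1.05 times in the mutant library (1.01 to 1.08), and Lgmn 0.796 times (0.515 to 1.17) and 0.786 times (0.719 to 0.857). Ifi30 was 1.60 times (1.31 to 1.95) and 3.51 times (3.25 to 3.79) as high inside. Its level was 419 CPM inside the control gate and 572 CPM inside the mutant gate. Ctsl, Ctsb and Ctsd were lower inside in both libraries, and the intervals of Sppl2a held equal levels.

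Of the 7 subunits of the complexes on the X and Y boxes, 0 passed 2-fold in either direction, a count near the background of 7.11% higher and 2.69% lower. Their median was 0.16, against 0.064 over all genes. Rfxank had the highest log2 ratio, 0.87 (0.70 to 1.05), followed by Nfya (0.46) and Rfx5 (0.44), while Rfxap was at -0.21 (-0.27 to -0.16). The intervals of Nfyb and Nfyc held 0.

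Of the genes that act on the finished molecule or beside it, Marchf1, a ubiquitin ligase that takes class II and Cd86 off the surface, went from 1.90 to 19.9 CPM (log2 3.38, 3.21 to 3.56), while Marchf8 had a log2 ratio of 0.18. The co-stimulatory gene Cd86 went from 2.93 to 32.0 CPM (log2 3.45, 3.31 to 3.59), but Cd80 was at -0.24 (-0.39 to -0.085) and the interval of Cd40 held 0 (-0.010, -0.17 to 0.15). Unlike the class II chains, Cd86 and Marchf1 lay mostly outside the gate, which held 2.92% of the mutant Cd86 UMIs and 1.48% of those of Marchf1. Outside it their log2 ratios were 3.42 and 3.38. The mutant gate held 1204693 of the 130570306 UMIs of mutant cells with at least 5000 UMIs, so these small shares were still an enrichment. Cd86 was 3.23 times (2.68 to 3.87) and Marchf1 1.61 times (1.14 to 2.21) as high inside the mutant gate as outside it. The control gate held 2 and 3 UMIs of these genes, too few for such a comparison. Cd40 had 29 UMIs in the mutant gate and 0 in the control gate.

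Interferon gamma is the usual inducer of Ciita in macrophages. Ifng had 0 UMIs in both libraries. Irf1, a transcription factor gene of its route, went from 9.94 to 24.8 CPM (log2 1.32, 1.23 to 1.41). Jak2 was at 1.06 (0.97 to 1.15), the receptor chain Ifngr1 at 0.87 and Ifngr2 at 0.39. The kinase gene Jak1 was at 0.32 (0.28 to 0.35) and the inhibitor gene Socs1 at 0.13 (0.017 to 0.24). Several of these genes also answer to type I interferon.

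The class I genes, which present peptides from inside the cell, were past 2-fold in 5 of 5 cases, beside 7.11% of all genes tested, with a median of 1.37. B2m had a log2 ratio of 1.60, H2-K1 1.43, the transactivator gene Nlrc5 1.37, the transporter gene Tap1 1.23 and H2-D1 1.19. Class I differed from class II in its spread. H2-K1 was 1.87 times as high inside the class II gate as outside it in the control library (1.64 to 2.11) and 1.49 times in the mutant library (1.44 to 1.55). Outside the gate its log2 ratio was 1.42, against 0.87 for the summed class II members. Over all cells the order was the opposite, 1.43 against 1.76. The gate was set on 3 of the class II members and not on H2-K1, so the contrast outside it follows in part from the rule and is only described.

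**Figure D5:**
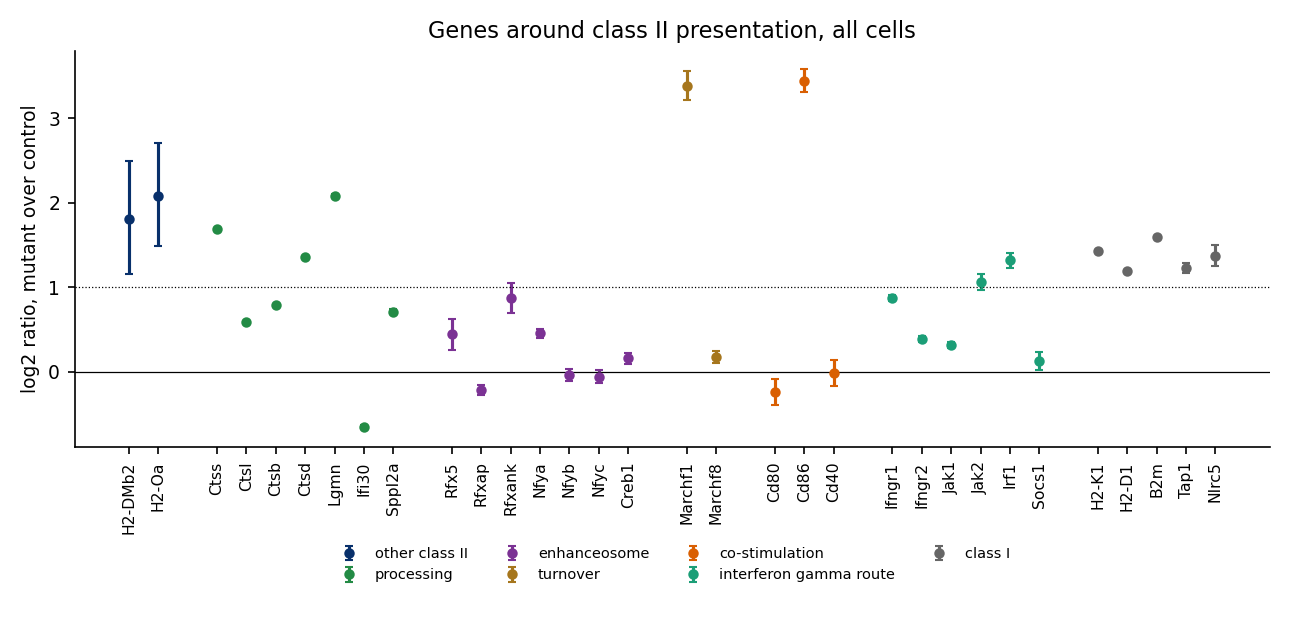
log2 ratio of mutant over control over all cells (vertical) for genes around class II presentation, grouped as other class II genes, processing enzymes, subunits on the X and Y boxes (enhanceosome), surface turnover, co-stimulation, the interferon gamma route and class I. Bars are 95% intervals for counting error, the dotted line marks a 2-fold higher level, and Ifng, H2-Ob and H2-Eb2, which had 0 UMIs in the control library, are not drawn. Cd86 and Marchf1 stand highest, at 3.45 and 3.38, and the enhanceosome subunits lie between -0.21 and 0.87.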

How the data were processed

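The authors deposited a sparse matrix of UMI counts for each library, not normalized, from a 10x Genomics 3′ kit. The headers name Cell Ranger 6.1.0, and the submitters' processing notes name GRCm39. Counts of 3′ ends are not scaled by gene length, so levels were not compared between genes, and ratios of UMIs of a gene pair were only followed between cell sets. A filter for doublets was not stated, and likely doublets were kept in the main values. They were marked, as an alternative, by their nearest simulated doublets (333 control and 275 mutant barcodes).

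The members and gene lists were chosen with earlier results of these data known. Groups came from the genotype label, 1 library each. The libraries held 6455 and 5865 barcodes with 164004706 and 131800059 UMIs. Levels are summed UMIs per 1e6 UMIs with exact Poisson intervals, ratios have exact conditional intervals, shares exact binomial (Clopper-Pearson) ones, and a difference between shares was given bounds by square-and-add. Of these, only the ratio intervals were tested on simulated data. The simulated library sums were Poisson counts, so clumping of UMIs in single cells was not covered. With 1 library per group, no p-value was computed. Genes named are the 7 members, the pathway, class I and marker lists, and the 10 nonmembers of at least 200 mutant UMIs with the highest r to the gate genes. Some genes of these lists are not reported here. Of 32544 identifiers 31977 matched GENCODE M39. Promoter windows came from RefSeq (GRCm38.p6). Python 3.11.15, numpy 2.4.6, scipy 1.17.1, scikit-learn 1.9.0 and, for TMM factors, edgeR 4.0.16 were used.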

Additional observations from a re-analysis of the deposited data

How the results depend on the processing

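No paired analysis was possible because each group had 1 library and the labels carried no replicate numbers. Across the alternatives run for each member and for the summed values over all cells and outside the gate, none changed the direction of a difference. Over all cells the log2 ratio of the 7 members, 1.76, was 1.804 with doublets removed, 1.70 under TMM, 1.67 under median-of-ratios scaling, 1.65 on totals without mitochondrial and ribosomal protein genes and 2.37 with every cell weighted alike. Outside the gate the value of 0.87 became 0.81, 0.79, 0.76 and 1.01 under the last 4 of these. It was 1.01 when thinned to 2000 UMIs, 0.75 at 10000 UMIs, 0.81 on counts not thinned, 0.95 for a gate of at least 10 UMIs and 0.73 for a gate over Cd74, H2-DMa and H2-DMb1. The difference in the share of gate cells, 0.973 points, was 1.43 on counts not thinned, 1.67 for a gate of at least 1 UMI, 0.612 for one of at least 10 and 2.18 for the gate over Cd74, H2-DMa and H2-DMb1. The first 1% of cells held 27.8% of all control and 53.4% of all mutant member UMIs. These were 29.3% and 54.2% with doublets removed, and 40.2% and 58.9% when cells were ranked by the gene's own count. With genes of a mean of at least 20 CPM alone, 1 member remained, Cd74, so that the count past 2-fold was 1 over all cells and 0 outside the gate. The causes of the other shifts were not tested.

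Further alternatives were chosen after seeing the data. Without the cell of most class II UMIs in each library, the log2 ratio over all cells was 1.82 and the first 1% of cells held 22.03% and 51.8%. Without the control gate cell of most gate-gene UMIs, Cd74 inside the gate went from a log2 ratio of -0.015 to 0.47, H2-Aa from 1.05 to 1.67, H2-Ab1 from 0.88 to 1.51 and H2-Eb1 from 1.10 to 1.87. A gate of at least 3 per 5000 UMIs that also admits shallow cells took 10 of 6269 control and 67 of 5663 mutant cells, a difference of 1.02 points. Depth limits Ciita most, with 37 and 45 UMIs, and the background of H2-Aa and H2-Eb1 outside the gate.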

Other observations

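In the control library 1 of the 37 Ciita UMIs lay in a gate cell. Of the 36 outside, 20 lay in cells of neither state gate and 15 in cycling gate cells, where Ciita was seen in 18 of 3386 and 15 of 2102 cells. The mutant library had 3 and 4 UMIs in the matching cells. In OC gate cells outside the class II gate Ciita had 1 control and 3 mutant UMIs, with a log2 ratio of 3.55 whose interval held 0 (-0.085 to 9.27). On counts thinned to 5000 UMIs, a Ciita UMI was found outside the gate in 13 of 6088 cells of the control library (0.214%, 0.114 to 0.365%). In the mutant library the cells were 2 of 5249 (0.0381%, 0.00461 to 0.138%). The log2 ratio of Ciita outside the gate stayed below 0 under all 13 alternatives, from -2.25 to -1.07. Ciita overlaps Dexi on the opposite strand, and the part of Dexi reads in these few counts was not tested.

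The class II transcripts of shallow mutant cells were concentrated as well. Among 351 mutant cells with fewer than 5000 UMIs, 9 held all 114 H2-Aa UMIs, and Cd74 stood at 319 CPM (283 to 358), against 31.6 CPM (16.8 to 54.0) in the 168 shallow control cells. Of these Cd74 UMIs 1 cell held 82 of 287 in the mutant and 1 cell 8 of 13 in the control library. The intervals do not cover such clumping.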
